A study of Mus musculus with 8 samples.

Results

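The mRNA of 7 forkhead transcription factors of the mesenchyme, Foxf1a, Foxf2, Foxl1, Foxc1, Foxc2, Foxd1 and Foxp1, was examined in NIH3T3, a Hedgehog-responsive line of mouse embryonic fibroblasts. Foxf1a is the name of Foxf1 on the mm9 mouse genome. For each gene the assembled locus that best overlapped the annotated gene on mm9 was taken in each of 8 RNA-Seq samples, 2 each of 4 conditions. The 7 genes were 7 of 21192 annotated genes that could be followed in all 8 samples. The empty pcDNA3.1 (Zeo+) vector was stably transfected into the cells of the Control and Hh-CM groups (NIH3T3-pc3.1), and the same vector with Esrrb, an orphan nuclear receptor, into those of the Esrrb and Esrrb+Hh-CM groups (NIH3T3-Esrrb). Both lines were selected with zeocin and grew from pooled transfections rather than from 1 clone. The Hh-CM and Esrrb+Hh-CM groups received, for 48 h, 1 % of medium conditioned by HEK293 (human embryonic kidney) cells with a Sonic Hedgehog N-terminus transgene. The Control and Esrrb groups received equally diluted medium of HEK293 cells lacking it.

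Forkhead factors bind DNA through a conserved winged-helix domain. Foxf1 and Foxf2 are expressed in the mesenchyme beneath the gut and lung epithelium, where epithelial Hedgehog ligand induces them through the Gli factors, and Foxl1 marks the mesenchymal cells directly under the gut epithelium, where it restrains epithelial proliferation. Foxc1 and Foxc2 shape somites, eye, kidney and vessels, Foxd1 marks the stroma of the embryonic kidney, and Foxp1 is a repressor with roles in heart, lung and lymphocyte development that belongs to a branch of the family able to dimerise.

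Levels were measured in FPKM, the fragments on a transcript relative to its length and to all mapped fragments of the sample. Targets of the Hedgehog pathway rose with Hh-CM. Gli1, a transcription factor and direct target of the pathway, was at 0.022 and 0.031 FPKM in the Control samples and at 26.8 and 28.1 FPKM in the Hh-CM samples. Ptch1, the receptor of the ligand, was at 2.44 and 2.98 FPKM and at 37.0 and 37.0 FPKM in the same samples. The 4 treated samples did not overlap the 4 vehicle samples for either gene. The Esrrb locus, by contrast, was listed at 0 in Control, Esrrb and Esrrb+Hh-CM samples and at 0.028 and 0.020 FPKM in the Hh-CM samples. The RNA values therefore do not show the vector's product, and every difference between vectors given here rests on the sample labels. The paper reports Esrrb protein by Western blot in NIH3T3-Esrrb cells and none in NIH3T3-pc3.1 cells. Expressed genes were also listed at 0 in some samples, as given below, so the 0 of Esrrb is not read as an absence. Of the markers of other cell types, the epithelial genes summed to at most 0.158 FPKM with Epcam and Krt18 at 0, while 7 fibroblast markers summed to between 4935 and 5768 FPKM. The depth, inferred from the FPKM worth of 1 read, ranged from 0.746 to 1.49 times that of Control replicate 1.

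The members differed widely in level, from Foxf2, which stood at percentile 61.5 of the 10357 tested genes by its mean, to Foxd1, which was listed at 0 in all 8 samples. A gene was tested when it reached 1 FPKM in at least 2 samples, and 5 of the 7 members did so in all 8. Foxp1 stood at percentile 27.3, Foxf1a at 12.5, Foxc1 at 12 and Foxc2 at 7.43. Foxl1 remained below the limit, with 0.466 to 0.861 FPKM and an estimated 20 to 54 reads per sample. The order of the medians over the 8 samples was Foxf2 (17.3 FPKM), Foxp1 (5.80 FPKM), Foxc1 (2.66 FPKM), Foxf1a (2.62 FPKM), Foxc2 (1.93 FPKM), Foxl1 (0.769 FPKM) and Foxd1. The lowest Foxf2 sample, at 13.9 FPKM, lay above the highest Foxp1 sample, at 7.56 FPKM, and the lowest Foxp1 sample, at 4.33 FPKM, lay above the highest sample of every remaining member. Foxc1 and Foxf1a overlapped and could not be ordered, Foxc2 reached from 1.45 to 2.04 FPKM and overlapped both at its upper end, and no Foxl1 sample reached the lowest Foxc2 sample. At Foxd1, 3 reads would have given between 0.0551 and 0.11 FPKM. Genes used by every cell also had zeros, such as Ndufs1, an electron transport subunit, which was listed at 0 in 5 samples and at 50.8 to 54.0 FPKM in the others, so the 0 of Foxd1 is given as listed and not as an absence.

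**Figure D1:**
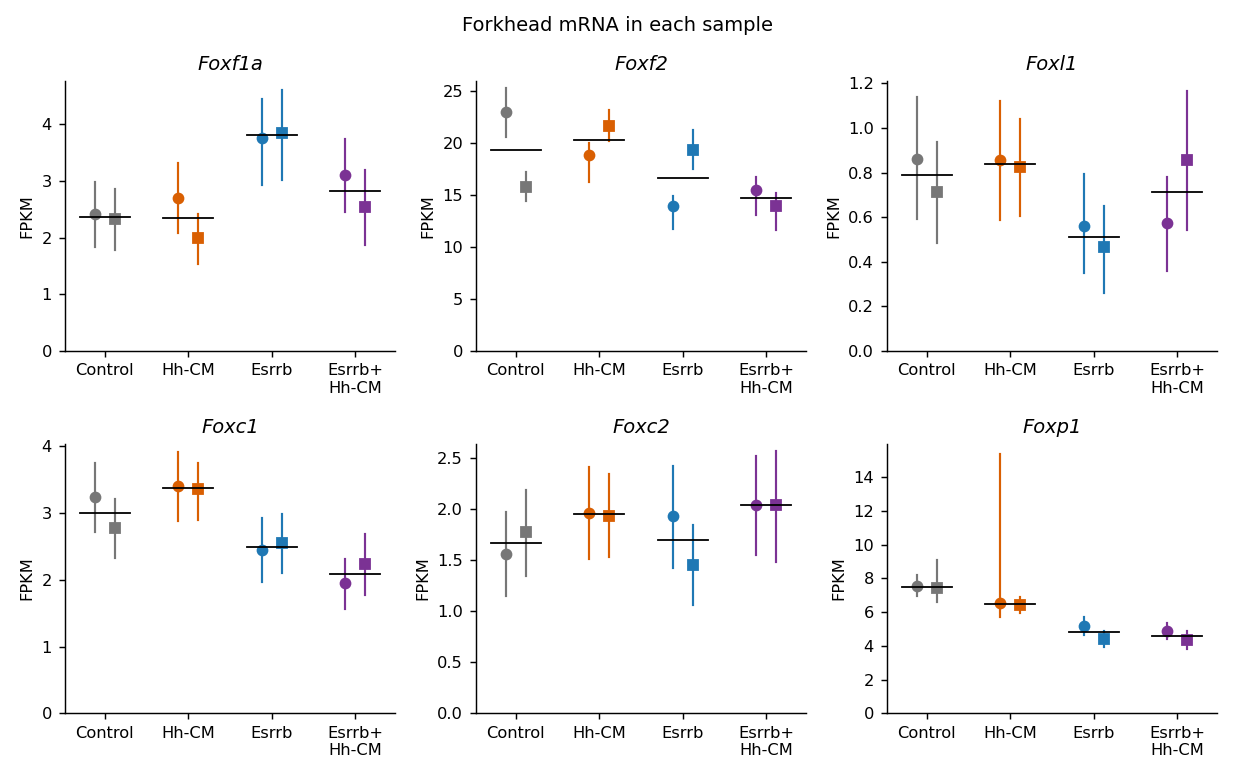
FPKM of 6 forkhead mRNAs in each of the 8 samples, with circles for replicate 1, squares for replicate 2, vertical lines for the confidence interval that Cufflinks gave and a black line for the mean of each condition (n = 2). Foxp1 and Foxc1 lie lower in the 4 samples labelled with the Esrrb vector than in the 4 others, Foxf2 replicates lie apart in Control and Esrrb, the interval of Foxp1 in Hh-CM replicate 1 reaches 15.4 FPKM, and Foxd1, at 0 throughout, is not drawn.

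These genes lie in pairs and clusters. On mm9, Foxf1a (chr8:123608286-123610851), Foxc2 (chr8:123640071-123642792) and Foxl1 (chr8:123651840-123652929) follow each other on the plus strand, with 29.2 kb between Foxf1a and Foxc2 and 9.05 kb between Foxc2 and Foxl1. Foxf2 (chr13:31717685-31723272) and Foxc1 (chr13:31898515-31902504) are neighbours 175 kb apart. Foxd1 (chr13:99124200-99126660) lies elsewhere on chromosome 13, and Foxp1 (chr6:98875332-99216526, minus strand) spans 341195 bases.

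The promoter windows of the members with the highest level (Foxf2), of both that were lower with the Esrrb vector (Foxc1 and Foxp1) and of the one listed at 0 (Foxd1) show how the starts of these genes compare in sequence. Windows hold 250 bases before and 50 bases after a start, come from RefSeq on GRCm38.p6, a later build than that of the FPKM files, and were matched for 4 members with 6 windows, 3 of them for Foxp1, whose window richest in CG is shown. Every CG dinucleotide is in capitals. The windows are chr13:31625566-31625865 (plus strand), chr13:31806396-31806695 (plus), chr6:99028249-99028548 (minus) and chr13:98353995-98354294 (plus), in the order printed.
Foxf2 promoter window: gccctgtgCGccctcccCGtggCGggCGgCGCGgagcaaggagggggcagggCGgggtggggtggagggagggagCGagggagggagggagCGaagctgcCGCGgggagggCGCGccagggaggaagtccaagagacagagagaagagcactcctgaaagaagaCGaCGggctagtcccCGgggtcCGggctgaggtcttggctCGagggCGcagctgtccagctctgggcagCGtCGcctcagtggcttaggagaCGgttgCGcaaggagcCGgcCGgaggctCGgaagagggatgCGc
Foxc1 promoter window: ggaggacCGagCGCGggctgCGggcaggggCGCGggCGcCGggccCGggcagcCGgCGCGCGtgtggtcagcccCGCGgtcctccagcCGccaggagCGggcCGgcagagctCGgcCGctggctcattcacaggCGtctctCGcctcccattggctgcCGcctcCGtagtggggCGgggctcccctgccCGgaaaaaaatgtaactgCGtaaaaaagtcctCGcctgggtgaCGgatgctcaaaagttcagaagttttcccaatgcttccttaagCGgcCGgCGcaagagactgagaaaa
Foxp1 promoter window: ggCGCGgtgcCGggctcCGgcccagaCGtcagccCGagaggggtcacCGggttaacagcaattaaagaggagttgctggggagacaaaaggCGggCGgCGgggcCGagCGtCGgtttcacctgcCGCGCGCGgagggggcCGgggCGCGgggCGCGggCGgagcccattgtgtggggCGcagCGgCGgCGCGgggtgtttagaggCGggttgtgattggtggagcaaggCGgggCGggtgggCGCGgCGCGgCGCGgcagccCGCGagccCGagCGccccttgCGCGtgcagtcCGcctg
Foxd1 promoter window: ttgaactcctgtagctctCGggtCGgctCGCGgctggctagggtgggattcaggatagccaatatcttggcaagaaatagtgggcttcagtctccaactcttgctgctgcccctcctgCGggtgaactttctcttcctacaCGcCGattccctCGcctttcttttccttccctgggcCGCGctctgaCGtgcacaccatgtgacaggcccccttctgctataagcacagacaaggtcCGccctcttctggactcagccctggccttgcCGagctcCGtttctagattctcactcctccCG
Foxp1 has 44 CG dinucleotides in this window, Foxc1 32, Foxf2 27 and Foxd1 15, against a median of 7 over 32851 mouse windows. As many or more occur in 2.25% of all windows for Foxp1, 9.52% for Foxc1, 15.5% for Foxf2 and 34.6% for Foxd1. The other Foxp1 windows have 13 (chr6:99520944-99521243) and 5 (chr6:99266466-99266765). On the minus strand both lie upstream of the one shown, and which start these cells use was not tested. The GLI sequence GACCACCCA, searched on both strands, is in none of the 6 windows and in 0.253% of all windows, and the response element of estrogen-related receptors, TCAAGGTCA, is in none of the 6 and in 0.423% of all. TATAAA is in none of them, against 13.6% of all windows, and CCAAT is in 3 of them (Foxc1, Foxd1 and the Foxp1 window shown), against 37.4% of all. These letters do not overlap each other, and their absence here says nothing of sites elsewhere.

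The study asked which mRNAs respond to Hh-CM in cells with the empty vector. None of the 5 tested members passed. A gene was called when its adjusted p (limma, Benjamini-Hochberg over all tested genes) was below 0.05 and its log2 change was at least 1 in size, and 0 of 5 members were called against 2.74% of all tested genes. By the adjusted p alone the count was also 0, against 17.9% of all tested genes, and 0 members had an unadjusted p below 0.05.

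Foxf1a had 2.42 and 2.32 FPKM in Control and 2.71 and 1.99 FPKM in Hh-CM samples. The Control samples lay between the Hh-CM samples, and the log2 change was -0.028 (SE 0.17; 95% interval -0.45 to 0.39; adjusted p = 0.94). Foxf2 had 22.9 and 15.8 FPKM in Control and 18.9 and 21.7 FPKM in Hh-CM samples, so that here the treated samples lay inside the range of the untreated ones. Its log2 change was 0.085 (SE 0.22; 95% interval -0.47 to 0.64; adjusted p = 0.844). Both factors are the family's best known Hedgehog targets in gut mesenchyme, and in these fibroblasts their intervals excluded a change of 2-fold in either direction.

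Foxc1 had 3.23 and 2.77 FPKM in Control and 3.40 and 3.35 FPKM in Hh-CM samples, so that both treated samples were higher, by less than the test could separate (log2 change 0.17, SE 0.12, adjusted p = 0.39). Foxc2 likewise had 1.56 and 1.77 FPKM in Control and 1.96 and 1.93 FPKM in Hh-CM samples (0.21, SE 0.16, adjusted p = 0.429). Foxp1 had 7.56 and 7.42 FPKM in Control and 6.54 and 6.40 FPKM in Hh-CM samples, both lower (-0.21, SE 0.10, adjusted p = 0.223). For all 5 members the 95% interval lay within a 2-fold change. The median size of their log2 change was 0.17, beside 0.15 over all tested genes, and the largest, of Foxc2, was reached or exceeded by 37.3% of all tested genes. Foxl1 was not tested under the FPKM limit, and with 0.861 and 0.714 FPKM in Control and 0.856 and 0.824 FPKM in Hh-CM samples the treated samples lay inside the range of Control. Endothelial markers summed to 0.111 to 0.157 FPKM in Control and to 1.19 to 1.44 FPKM in Hh-CM samples, with Kdr at 0, and 1 of the 5, Tek, was tested and rose by 2.73 on the log2 scale (adjusted p = 0.00434). Most of the endothelial sum in Hh-CM samples was Tek, at 1.06 and 1.24 FPKM, and Pecam1 reached at most 0.12 FPKM. Thy1, a fibroblast surface marker, rose by 2.18 (adjusted p = 2.54e-05), while the fibroblast marker Pdgfrb had a log2 change of -0.37 (adjusted p = 0.00297). Of 7 fibroblast markers tested, only these passed the adjusted p, 1 higher and 1 lower. The part of all these markers in the members' values was not tested. In simulated data of the same design, 99 tested genes at each of 2 sizes of change were placed among 10240. The adjusted p recovered 47.5% of genes changed by 0.6 on the log2 scale and 90.9% of those changed by 1.5 in this comparison, so changes well under 2-fold were often missed there. The changed genes were drawn over all levels and were far fewer than the 17.9% that passed in the real data. These shares therefore do not give the power for the members.

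**Figure D2:**
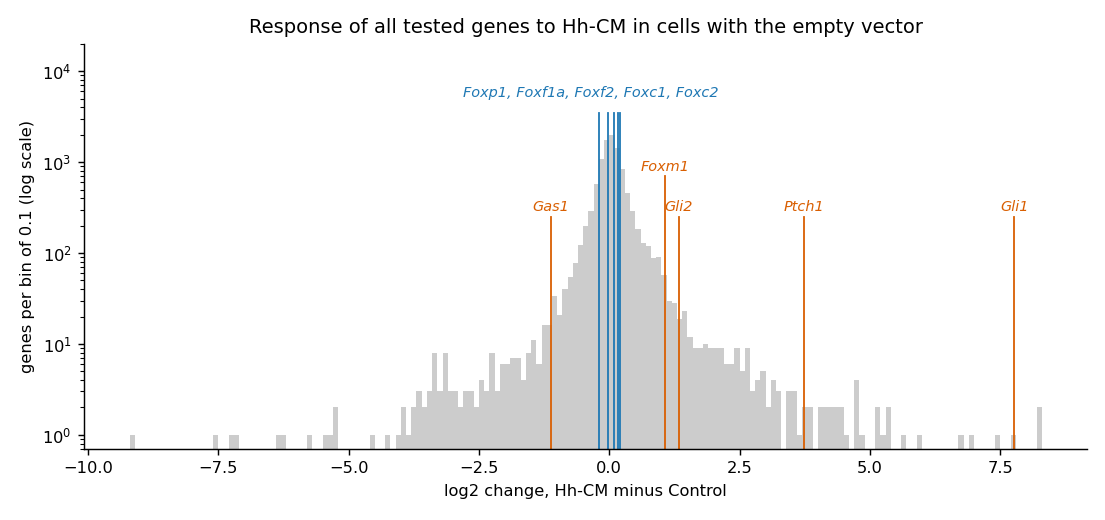
Histogram of the log2 change from Control to Hh-CM over the 10357 tested genes (vertical axis on a log scale), with blue lines for the 5 tested members and orange lines for Hedgehog pathway genes and Foxm1. The members lie between -0.21 and 0.21 in the centre of the distribution, while Ptch1 lies at 3.73 and Gli1 at 7.77.

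With the Esrrb vector no member passed with Hh-CM either. Between Esrrb+Hh-CM and Esrrb samples 0 of 5 members were called, against 4.79% of all tested genes, and 0 passed the adjusted p alone, against 23.4%. Foxf1a had 3.76 and 3.84 FPKM in Esrrb and 3.096 and 2.54 FPKM in Esrrb+Hh-CM samples. Both treated samples were lower, with a log2 change of -0.43 (95% interval -0.85 to -0.008), and this was the only member with an unadjusted p below 0.05, its adjusted p being 0.135. The adjusted p of the other 4 members ranged from 0.202 to 0.715. Foxc2 reached 2.04 FPKM in both Esrrb+Hh-CM samples against 1.93 and 1.45 FPKM in Esrrb samples, a log2 change of 0.27 (adjusted p = 0.305). With the responses averaged over both vectors, an average added after the data were seen, 0 members passed the adjusted p, against 28.8% of all tested genes.

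Whether the vectors differ in the response to Hh-CM was tested as an interaction, the response in NIH3T3-Esrrb cells minus that in NIH3T3-pc3.1 cells, and 0 members passed, against 1.34% of all tested genes. Foxc1 had the lowest unadjusted p of the 5, the only one below 0.05, with a difference of -0.42 on the log2 scale (SE 0.17; 95% interval -0.83 to -0.004; adjusted p = 0.274). The Hh-CM samples had the highest Foxc1 levels of the 8 samples and the Esrrb+Hh-CM samples the lowest. The others had adjusted p from 0.456 to 0.929.

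The question of what Esrrb changes without ligand was addressed by Esrrb against Control samples, and here Foxp1 was lower. It had 7.56 and 7.42 FPKM in Control samples and 5.20 and 4.43 FPKM in samples labelled Esrrb. The log2 change of -0.63 (SE 0.10; 95% interval -0.88 to -0.39; adjusted p = 0.0131) means that Foxp1 fell by 35.5% on the scale of FPKM + 0.1. Since the change was under 2-fold, 0 of 5 members were called, against 1.51% of all tested genes, and by the adjusted p alone, a rule added after the data were seen, Foxp1 was the 1 member that passed, against 16.3% of all tested genes in either direction and 6.11% that were lower. Changes at least as large were seen in 7.24% of all tested genes. Without Control replicate 1 or Control replicate 2 the adjusted p of Foxp1 became 0.0698 and 0.0609.

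Foxf1a went the other way, from 2.42 and 2.32 FPKM in Control samples to 3.76 and 3.84 FPKM in samples labelled Esrrb. The replicates of either condition lay within 1.04-fold of each other. The log2 difference was 0.66 (SE 0.17; 95% interval 0.241 to 1.081), the largest of the 5 members in this comparison, and its adjusted p was 0.0519, just short of the threshold. That p moved to either side with the processing, from 0.0365 with only the compared groups in the fit to 0.14 with no FPKM limit. Leaving out 1 sample gave log2 differences of 0.633 to 0.688. Foxc1 differed by -0.25 (adjusted p = 0.208), Foxf2 by -0.21 (adjusted p = 0.561) and Foxc2 by 0.011 (adjusted p = 0.975). Foxl1, untested, had 0.559 and 0.466 FPKM in Esrrb samples, both below the 0.861 and 0.714 FPKM of Control. At an estimated 20 to 54 reads per sample, the Cufflinks intervals of these Foxl1 values overlap.

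In the presence of ligand the Esrrb vector was tested by Esrrb+Hh-CM against Hh-CM samples, where Foxc1 and Foxp1 were both lower. Foxc1 had 3.40 and 3.35 FPKM in Hh-CM and 1.95 and 2.23 FPKM in Esrrb+Hh-CM samples. The log2 change was -0.67 (SE 0.12; 95% interval -0.96 to -0.38; adjusted p = 0.0161), so that Foxc1 fell by 37.1%. Foxp1 had 6.54 and 6.40 FPKM in Hh-CM and 4.87 and 4.33 FPKM in Esrrb+Hh-CM samples, and its log2 change was -0.49 (SE 0.10; 95% interval -0.73 to -0.24; adjusted p = 0.0248). Neither reached 2-fold, so that 0 of 5 members were called, against 2% of all tested genes, and 2 passed the adjusted p alone, against 18.9% in either direction and 6.5% lower. Foxf2 was lower as well, at 15.4 and 13.9 FPKM against 18.9 and 21.7 FPKM, with a log2 difference of -0.46 that did not pass (SE 0.22; adjusted p = 0.21). Foxf1a, at 0.26, and Foxc2, at 0.063, had adjusted p of 0.333 and 0.825. The adjusted p of both Foxc1 and Foxp1 rose above 0.05 without Hh-CM replicate 1 (0.0845 and 0.115) or Hh-CM replicate 2 (0.0687 and 0.0883), that of Foxc1 without Esrrb+Hh-CM replicate 1 (0.0589) and that of Foxp1 without Esrrb+Hh-CM replicate 2 (0.0864). It also rose above 0.05 for both with only these groups in the fit (0.0544 and 0.0592), and for Foxp1 with no FPKM limit (0.0639).

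Esrrb+Hh-CM against Control samples, the comparison of both changes together, gave the largest decrease of Foxp1. The samples had 4.87 and 4.33 FPKM against 7.56 and 7.42 FPKM, a log2 change of -0.69 (SE 0.10; adjusted p = 0.0039). Its adjusted p stayed below 0.05 under every other processing that gave a value, from 0.0022 with rescaled FPKM to 0.0151 with no FPKM limit. A minimum overlap of 0.8 left no value for Foxp1. Leaving out 1 sample gave log2 changes of -0.776 to -0.61. Foxc1, with 1.95 and 2.23 against 3.23 and 2.77 FPKM, had a log2 change of -0.50 (SE 0.12; adjusted p = 0.0225). The count called was 0 of 5, against 6.23% of all tested genes, and the same 2 genes as in the preceding comparison passed the adjusted p alone, against 34.9% in either direction and 12% lower. These comparisons share samples with each other and are not independent. Foxc1 lost its adjusted p without Control replicate 1 (0.106), without Esrrb+Hh-CM replicate 1 (0.0858), with only the compared groups in the fit (0.0752) or with no FPKM limit (0.052).

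**Figure D3:**
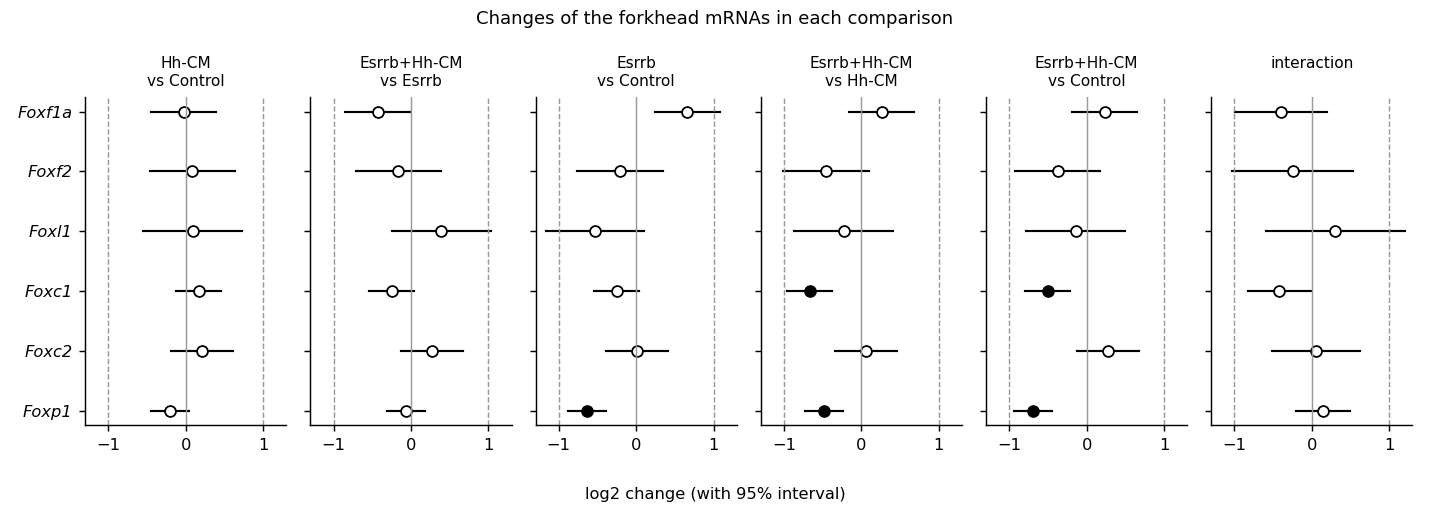
Log2 changes of 6 forkhead mRNAs in the 5 comparisons and the interaction, each as the group named above minus the group named below, with 95% intervals from limma, dashed lines at a 2-fold change and filled circles where the adjusted p was below 0.05. Foxp1 is filled in 3 panels and Foxc1 in 2, always below 0 and inside the dashed lines, and Foxl1, below the FPKM limit, is shown from the fit without that limit.

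The vectors were also compared over both media, an average added after the data were seen. Foxp1 was at 4.33 to 5.20 FPKM in the 4 samples labelled with the Esrrb vector and at 6.40 to 7.56 FPKM in the 4 with the empty vector. Foxc1 was at 1.95 to 2.54 FPKM and at 2.77 to 3.40 FPKM in the same samples. Neither overlapped, as was the case for 6.37% of all tested genes in this direction, and the average log2 changes were -0.56 for Foxp1 (SE 0.071; adjusted p = 0.00358) and -0.46 for Foxc1 (SE 0.084; adjusted p = 0.0115). Foxf1a rose by 0.46 on this average (SE 0.12; adjusted p = 0.0359), although its samples overlapped, at 2.54 to 3.84 FPKM with the Esrrb vector and 1.99 to 2.71 FPKM without. These were 3 of 5 members below an adjusted p of 0.05, against 30.3% of all tested genes, 10.1% lower and 20.1% higher. Foxf2 (-0.34, adjusted p = 0.167) and Foxc2 (0.037, adjusted p = 0.837) did not pass. The sum of the adipocyte markers was lower with the vector as well, almost all of it from 1 gene, Fabp4. Their 5 genes summed to 8.47 to 9.40 FPKM in Control and 3.99 to 4.85 FPKM in Hh-CM samples, against 3.85 to 3.89 FPKM in Esrrb and 1.71 to 2.37 FPKM in Esrrb+Hh-CM samples, with Adipoq and Cidec at 0 throughout. Fabp4, a fatty acid binding protein and the 1 tested gene among them, had 8.40 and 9.34 FPKM in Control and 1.35 and 2.11 FPKM in Esrrb+Hh-CM samples. Its average log2 change was -1.22 with the Esrrb vector (adjusted p = 0.00311) and -1.10 with Hh-CM (adjusted p = 0.00319). It was called lower in all 5 comparisons. Pparg stayed at or under 0.082 FPKM. Plin1 was higher in Esrrb+Hh-CM samples (0.313 and 0.203 FPKM) than in Control (0.075 and 0 FPKM). Fibroblast markers also differed with the vectors averaged over both media. Col3a1 (0.58), Col1a1 (0.29), Thy1 (0.28) and Pdgfra (0.14) passed the adjusted p as higher. Vim (-0.34) and Pdgfrb (-0.10) passed as lower, and Col1a2 (0.027) did not pass. The part of Fabp4 and of these markers in the differences of Foxp1, Foxc1 and Foxf1a was not tested. Each vector was carried by its own selected line, so the vector and other differences between the lines cannot be told apart.

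Among the 5 tested members, Foxf2 had the widest replicate ratio, 1.45-fold in Control and 1.39-fold in Esrrb samples, whereas Foxp1 replicates differed by at most 1.18-fold. The assembled Foxf2 locus also varied in length. It spanned 7463 bases in Control replicate 2, the lower of that pair, 5810 in Control replicate 1, 6052 in Esrrb replicate 2 and 5591 in the other 5 samples. The part of these lengths in the Foxf2 values was not tested. The Foxp1 locus was extended beyond the annotated gene, with a shared length of 0.61 to 0.669 of the joint length, while Foxc1 was above 0.8 in all 8 samples. In Control, Hh-CM and Esrrb samples the Foxp1 locus spanned 510004 to 510025 bases. It was longer only in the Esrrb+Hh-CM samples, at 531145 and 559547 bases, the group with the largest Foxp1 decrease against Control. The part of these lengths in the Foxp1 values was not tested. Foxl1 had an overlap of 0.368 with its short annotation, which calls it a pseudogene, and its values come from the locus carrying its RefSeq accession.

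Among genes beside the members, Gmds, which encodes an enzyme of GDP-fucose synthesis and ends 8.94 kb from Foxc1 on the opposite strand, was lower in samples labelled with the Esrrb vector, as Foxc1 was. It had 28.6 and 28.8 FPKM in Control, 32.4 and 32.3 FPKM in Hh-CM, 24.2 and 22.1 FPKM in Esrrb and 21.8 and 22.1 FPKM in Esrrb+Hh-CM samples. All 4 Esrrb-vector samples were the lowest, as was the case for 6.37% of all tested genes. The log2 change of Gmds was -0.31 in Esrrb against Control (adjusted p = 0.0153), -0.39 in Esrrb+Hh-CM against Control (adjusted p = 0.00289) and -0.56 in Esrrb+Hh-CM against Hh-CM (adjusted p = 0.0024). Foxq1, a forkhead gene 64.8 kb before Foxf2, stayed at or under 0.216 FPKM. Mthfsd, between Foxf1a and Foxc2, passed in no comparison. Btf3, a transcription factor subunit 37.2 kb before Foxd1, rose by 0.62 with Hh-CM (adjusted p = 0.000163), from 618 and 618 to 957 and 945 FPKM, beside a Foxd1 listed at 0. Of 13 tested genes within 500 kb of a member, 2 were called in a comparison. Gins2, a subunit of the replicative helicase 495 kb from Foxf1a, rose by 1.10 in Esrrb+Hh-CM against Control (adjusted p = 0.00488) and by 1.16 against Esrrb (adjusted p = 0.00553). Rgnef, 148 kb from Foxd1, had a log2 change of -1.11 in Esrrb+Hh-CM against Hh-CM samples (adjusted p = 0.0225). Over all tested genes, 6.23%, 4.79% and 2% were called in these comparisons, in the order given. With the vectors averaged over both media, Gmds (-0.435), Btf3 (-0.434), Rgnef (-0.741), Ankra2 (-0.304) and Cox4i1 (-0.211) passed the adjusted p as lower, against 10.1% of all tested genes. No tested neighbour other than a member passed as higher.

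Elsewhere in the forkhead family 1 gene was called. Of 37 other forkhead genes listed, 36 were matched, 14 were at 0 in all samples and 13 were tested, and Foxm1, which drives genes of the G2 and M phases of the cell cycle, was higher in all 3 comparisons in which it was called. It had 4.85 and 4.84 FPKM in Control, 10.3 and 10.3 FPKM in Hh-CM, 5.92 and 6.56 FPKM in Esrrb and 19.2 and 19.1 FPKM in Esrrb+Hh-CM samples. Its log2 change was 1.07 with Hh-CM (adjusted p = 0.00033), 1.96 in Esrrb+Hh-CM against Control (adjusted p = 2.33e-05) and 1.60 in Esrrb+Hh-CM against Esrrb (adjusted p = 5.54e-05). Foxd2 was tested and not called, but it had 2.513 FPKM in Hh-CM replicate 1 and was listed at 0 in Hh-CM replicate 2. Control samples had 0.866 and 0.771 FPKM and Esrrb+Hh-CM samples 2.755 and 3.029 FPKM. Its log2 change with Hh-CM (-0.84, SE 1.41) therefore settles nothing, and the paper lists Foxd2 as higher with Hh-CM. The median log2 change of the 13 tested genes with Hh-CM was 0.052, beside 0.035 over all tested genes and 0.085 over the 5 members.

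**Figure D4:**
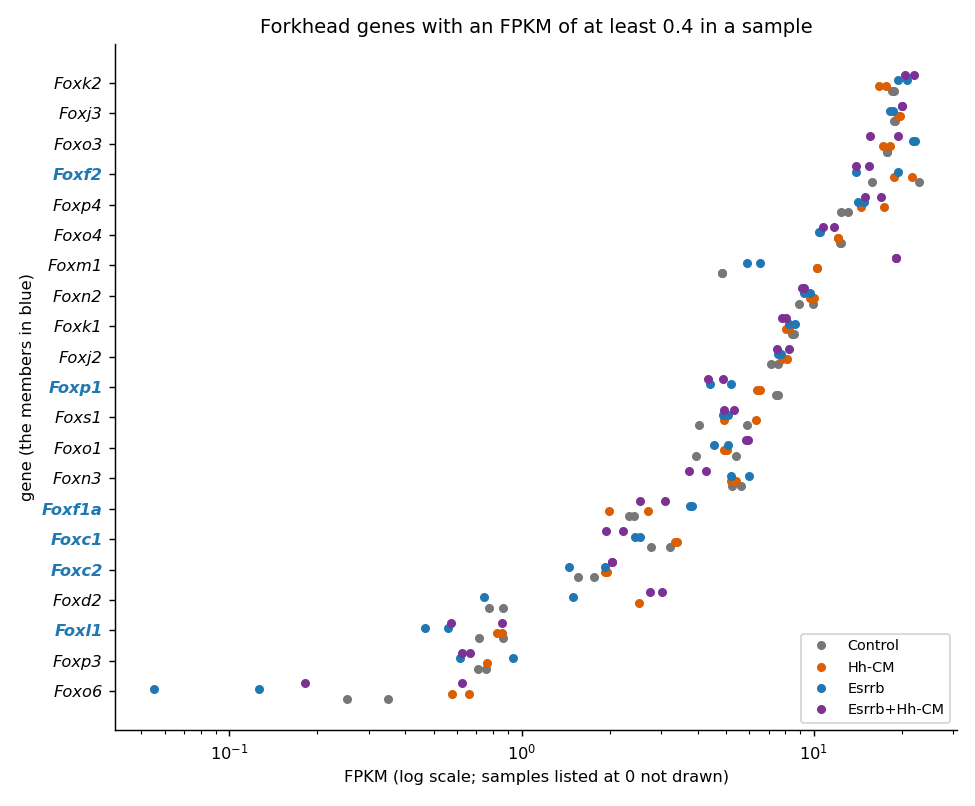
FPKM (log scale) of the 21 forkhead genes that reached 0.4 FPKM in a sample, with 1 point for each sample coloured by condition and the members in blue. Foxf2 lies among the highest of the family at 13.9 to 22.9 FPKM, Foxl1 among the lowest at 0.466 to 0.861 FPKM, and Foxm1 shows separated conditions from 4.84 FPKM in Control to 19.2 FPKM in Esrrb+Hh-CM.

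Some genes of the Hedgehog pathway responded to Hh-CM. Of 10 Hedgehog pathway genes examined, 9 were tested, and 3 were called higher and 1 lower with Hh-CM in cells with the empty vector. The higher ones were the Gli transcription factors Gli1 (log2 change 7.77) and Gli2 (1.33) and the receptor Ptch1 (3.73), and the lower one was the co-receptor Gas1 (-1.11). The other 5 tested genes of the pathway were not called with Hh-CM, and the median log2 change of the 9 was 0.26. Boc, a co-receptor, was called higher in Esrrb+Hh-CM against Control samples (log2 change 1.05, adjusted p = 0.0258). In the interaction 1 of the 9 tested pathway genes passed, against 1.34% of all tested genes. This was Gas1, which fell more with the Esrrb vector (difference -0.48 on the log2 scale, adjusted p = 0.0485). Of the 9 signals of gut mesenchyme listed, which include the Bmp and Wnt genes that forkhead factors control there, 2 were tested, Wnt5a and Pdgfra, and 0 were called in any of the 5 comparisons or the interaction. Bmp2, Bmp5 and Bmp7 were listed at 0 in all samples and Bmp4 reached at most 0.081 FPKM. Pdgfra, a growth factor receptor of mesenchymal cells, was at 297 to 396 FPKM.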

How the data were processed

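Poly(A) RNA of 8 NIH3T3 samples, 2 per condition as labelled, was sequenced with a stranded kit. The authors trimmed reads with FASTX-Toolkit, aligned them with Bowtie2 and TopHat2 (mm9) and ran Cufflinks on each sample separately, and the deposited values are FPKM per locus with confidence bounds, without counts. Cufflinks numbers loci anew in each sample, so loci were joined by overlap with GENCODE M1 genes, taking the best overlap if the shared length was at least 0.5 of the joint length. Genes not matched in all samples were then matched to the span of their RefSeq accession's locus (991 genes, Foxl1 among them). The coordinates printed count from 1.

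Genes with at least 1 FPKM in at least 2 samples entered a limma fit (version 3.58.1, R 4.3.3) of log2(FPKM + 0.1) with 4 group means, a variance trend and Benjamini-Hochberg adjustment, and the test was tried on simulated data. Changes are on that scale, which understates the changes of low genes. An exact permutation of 2 against 2 samples cannot go below p = 0.33. The methods of the study call the samples of a condition biological replicates without saying whether they came from separate transfections, so p-values measure the spread between these samples. The members and lists were chosen with earlier results of these data known. Genes other than members are named when they belong to a list and were called, lie next to a member or within 500 kb of it and were called, or check ligand and vector. Others are named to describe a list, the neighbours or a value listed at 0. The lists were other forkhead genes, the Hedgehog pathway (1 gene of it is not reported here), signals of gut mesenchyme, and markers of fibroblasts, epithelium, endothelium, macrophages and adipocytes. Macrophage markers summed to 2.16 to 2.77 FPKM in Control, 3.62 to 3.90 FPKM in Hh-CM, 2.28 to 2.83 FPKM in Esrrb and 2.65 to 3.39 FPKM in Esrrb+Hh-CM samples. Python 3.11.15, pandas 2.3.3 and matplotlib 3.10.9 were used.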

Additional observations from a re-analysis of the deposited data

Results flagged for a closer look

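A long non-coding RNA gene 1.35 kb before Foxf1a on the opposite strand, annotated as 1110050K14Rik and named Fendrr by RefSeq, lay below the FPKM limit and entered no test. It was listed at 0 in both Control samples, at 0.0258 and 0.0373 FPKM in the Hh-CM samples, at 0.1348 and 0.2951 FPKM in the Esrrb samples and at 0.182 and 0.232 FPKM in the Esrrb+Hh-CM samples. Both Esrrb values were singled out because their Cufflinks intervals lay above 0 while Control was at 0, and no test was made of the difference.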

How the results depend on the processing

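No member was called in any of the 5 comparisons or the interaction under pseudocounts of 1 and 0.001, other FPKM limits, rescaling, other loci or overlap, only the compared groups (not run for the interaction), no variance trend or with any sample left out, including 0 with the replicate block. Replicate numbers did not pair the samples (correlation of deviations -0.0583 to 0.0617), and the block lowered the interaction's calls over all genes from 139 to 54. With no fold change limit, added later, 1 member was called in Esrrb against Control and 2 each in Esrrb+Hh-CM against Control and against Hh-CM. For single members, 483 values kept direction and side of the threshold, 15 lost the threshold, 5 passed it (each Foxf1a in Esrrb against Control) and 14 turned direction, all of values that had not passed; the causes were not tested. Rescaled FPKM turned Foxc2 in Esrrb against Control to -0.031. Leaving out 1 sample gave log2 ranges of -0.184 to 0.206 for Foxc2 and -0.479 to 0.056 for Foxf2 in Esrrb against Control, -0.182 to 0.353 for Foxf2 and -0.241 to 0.185 for Foxf1a in Hh-CM against Control, -0.175 to 0.053 for Foxp1 and -0.398 to 0.074 for Foxf2 in Esrrb+Hh-CM against Esrrb, and -0.515 to 0.02 for Foxf2 and -0.144 to 0.247 for Foxc2 in the interaction. Where 1 sample of a condition remained, it was assumed to vary like the others. Over all genes, a pseudocount of 1 lowered the calls from 284 to 179 with Hh-CM, from 156 to 91 with Esrrb and from 207 to 128 in Esrrb+Hh-CM against Hh-CM, and omitting the variance trend lowered those of the interaction to 84. A minimum overlap of 0.8 left no value for Foxf1a, Foxf2 and Foxp1. Foxl1 rests on 20 to 54 estimated reads per sample, and Foxd1 on none.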

Other observations

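Unannotated loci lay close to some members, searched only among the loci that were matched to no gene. A locus of 705 to 905 bases between Foxc2 and Foxl1 (for Control replicate 1, chr8:123649725-123650629 on mm9) had 2.04 and 2.28 FPKM in Control samples, 1.81 and 1.93 FPKM in Hh-CM samples, 0.746 FPKM in Esrrb replicate 1 and 1.84 FPKM in Esrrb+Hh-CM replicate 2. No such locus was among the unmatched loci of Esrrb replicate 2 or Esrrb+Hh-CM replicate 1. Where present, it stood above Foxl1 in the same sample. Before Foxf2, a locus of 59997 to 83134 bases that ended shortly before its annotated start was found in all 6 samples other than Control, at 1.43 to 6.40 FPKM. It was not among the unmatched loci of either Control sample, and a locus matched to a gene would have been missed. Control replicate 2 instead had a locus of 414 bases that ended at about the same place, at 4.35 FPKM, and Esrrb replicate 1 had both a short locus (438 bases, 2.34 FPKM) and the long one. These loci were chosen after their values were seen and were not tested.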
